A study of Mus musculus with 6 samples.

Results

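Mitochondrial fatty acid oxidation and ketone body enzymes are described here in 6 whole-liver RNA-seq libraries, 3 labelled wild type and 3 labelled Cdkl3-/-. The group consists of 32 listed genes, taken by gene symbol from tables of 24927 rows. Of these, 29 had a row, and Cpt1b, Acads and Mlycd are not analysed here because no row carried their symbol. All mice were labelled C57BL/6 males aged 10 months on a chow diet, in both groups. Cdkl3 encodes a kinase related to the cyclin-dependent kinases. Its knockout was made in the liver according to the series' design, and the sources used here name no Cre line or promoter. No label states that every library is a separate animal, and the p-values cover the spread among these libraries, which may be partly technical. The study asks what loss of Cdkl3 does to the liver transcriptome, and the values below ask it of this pathway.

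Beta-oxidation shortens fatty acids inside mitochondria to yield acetyl-CoA and reduced electron carriers. Fatty acids are first activated to acyl-CoA, carried across the mitochondrial membranes as acylcarnitines, and then passed through repeated rounds of dehydrogenation, hydration, a further dehydrogenation and thiolytic cleavage. The liver turns much of the acetyl-CoA into ketone bodies during fasting and exports them, since hepatocytes hold little of the enzyme that uses them. Many of these genes are known targets of the nuclear receptor PPAR alpha.

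Values are FPKM, fragment counts scaled to transcript length and to the library total. This puts levels of different genes on 1 scale per length, but levels here also went with GC content, as given below, so a difference in level between genes is a description of these tables. Mitochondrially encoded transcripts made up 70.47% to 73.88% of summed FPKM in wild type and 63.17% to 70.11% in knockout libraries. The total to which values are scaled therefore differed in make-up between the groups. The libraries held between 20460000 and 48610000 counted reads, as recovered from the step size of the values. For 28 of the 29 genes every value corresponded to a whole number of reads to within 0.15 read, at the exon length given for the symbol in GENCODE M21. The exception was Acsl1, with up to 43977 reads and a largest distance of 0.433 read. Cdkl3 itself did not separate the groups, with 0.166, 0.0883 and 0.119 FPKM in wild type replicates 1 to 3 and 0.0761, 0.146 and 0.195 FPKM in knockout replicates 1 to 3. Xist, the RNA of the inactive X chromosome, measured 192 to 292 FPKM in wild type libraries and at most 0.0273 FPKM in knockout libraries, while the Y-linked Ddx3y measured at most 0.207 FPKM in wild type and 38.2 to 50.8 FPKM in knockout. The Y-linked Eif2s3y, Uty and Kdm5d were also called higher in knockout. High Xist with hardly any Y-linked RNA is the pattern of female tissue, at odds with the male label of the wild type libraries. The labelled genotype therefore cannot be told apart from sex in any comparison here. Knockout replicate 1 also held 5260 FPKM of the kidney transcript Kap. In bulk liver, fewer cells of a type and less RNA per cell cannot be told apart.

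Start-site regions are shown for 4 genes on which the results turn: Cpt1a, which was lower in knockout libraries, and Cpt2, Etfdh and Hadhb, which were higher. Each line gives a RefSeq window of the GRCm38.p6 build, from 250 bases before to 50 after the annotated start, read 5′ to 3′ on the strand of the gene. Capitals mark matches to any of 4 motifs, searched on both strands. They are the nuclear receptor half-site AGGTCA, the promoter box CCAAT, the E-box written CACGTG and the palindrome TTCNNNGAA, which STAT5 can bind. The windows are chr19:3323051-3323350 on the plus strand for Cpt1a, chr4:107923540-107923839 on the minus strand for Cpt2, chr3:79628718-79629017 on the minus strand for Etfdh and chr5:30155003-30155302 on the plus strand for Hadhb.
Cpt1a: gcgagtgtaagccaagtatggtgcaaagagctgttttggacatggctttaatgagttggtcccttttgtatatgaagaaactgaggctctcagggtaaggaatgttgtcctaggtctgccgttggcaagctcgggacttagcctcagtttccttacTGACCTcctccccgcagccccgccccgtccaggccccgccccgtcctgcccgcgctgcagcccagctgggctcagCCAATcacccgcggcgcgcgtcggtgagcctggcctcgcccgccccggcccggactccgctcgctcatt
Cpt2: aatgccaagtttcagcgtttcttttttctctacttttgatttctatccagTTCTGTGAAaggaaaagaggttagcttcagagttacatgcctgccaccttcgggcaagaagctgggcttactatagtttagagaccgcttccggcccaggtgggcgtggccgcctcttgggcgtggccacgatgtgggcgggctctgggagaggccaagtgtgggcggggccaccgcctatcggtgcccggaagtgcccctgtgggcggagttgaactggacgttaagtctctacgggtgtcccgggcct
Etfdh: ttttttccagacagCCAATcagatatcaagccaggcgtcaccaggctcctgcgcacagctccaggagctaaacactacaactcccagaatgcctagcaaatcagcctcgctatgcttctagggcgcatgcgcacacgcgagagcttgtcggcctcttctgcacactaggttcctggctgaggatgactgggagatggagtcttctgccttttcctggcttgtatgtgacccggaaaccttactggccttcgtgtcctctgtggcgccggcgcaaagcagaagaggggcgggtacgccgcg
Hadhb: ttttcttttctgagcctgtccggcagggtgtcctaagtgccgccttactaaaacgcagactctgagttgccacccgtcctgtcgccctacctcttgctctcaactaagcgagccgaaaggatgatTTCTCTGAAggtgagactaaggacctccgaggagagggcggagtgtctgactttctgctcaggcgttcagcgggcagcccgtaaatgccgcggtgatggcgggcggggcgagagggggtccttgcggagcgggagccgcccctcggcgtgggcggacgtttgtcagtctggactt
The Cpt1a window held AGGTCA at -94 (printed as its reverse complement) and CCAAT at -19, counted to the first base of the match from the start site. The Cpt2 window held TTCNNNGAA at -200, and the Hadhb window held it at -125. Hadha and Hadhb are transcribed away from each other on chromosome 5 from starts 273 bases apart, and their windows share 228 bases, so the match in the Hadhb window is also the match at -156 of the Hadha window. RefSeq windows were given for 27 of the 32 genes (29 windows, as Acsl1 and Bdh1 have more than 1). A direct repeat of AGGTCA with any 1 base between the copies, the consensus of a PPAR response element, was in 0 of these 29 windows and in 0.04% of 32851 windows of all genes. The half-site AGGTCA, which is part of that repeat, was in 5 windows (16.3% of all windows) and TTCNNNGAA in 4, those of Acsm1, Cpt2, Hadha and Hadhb (8.3% of all). CCAAT was in 13 windows (37.4% of all) and CACGTG in 1, that of Acsm5 (7.15% of all). These are matches of letters only and the windows do not cover distal elements.

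Of the 29 genes, 21 had at least 1 FPKM in at least 3 libraries and were tested. In the libraries labelled knockout 11 rose (52.4%), 3 fell (14.3%) and 7 were not called, at a limma adjusted p under 0.05 over all genes. The background was 33.7% of 5673 tested genes called higher and 20.4% called lower, and whether the pathway differs from it was not tested. The median log2 difference was 0.83 over the 21 genes and 0.12 over all tested genes. Differences are taken after adding 1 FPKM (log2(FPKM + 1)), which makes changes of low genes look smaller than they are. Of the 11 that rose, Cpt2, Echs1, Acaa2 and Acsf2 were under 1 FPKM in every wild type library and entered the test only through the knockout group, so they could hardly have been called lower. With a pseudocount of 0.1 FPKM their log2 differences were larger, at 3.62 for Cpt2, 2.96 for Echs1, 3.53 for Acaa2 and 2.00 for Acsf2. Among the other 17 tested genes 7 rose and 3 fell. Of these 7, Acsl5 reached 1 FPKM in wild type replicate 1 alone among wild type libraries. It too needed knockout libraries to pass and could hardly have been called lower. At a filter of 10 FPKM in 3 libraries, 13 genes were left, of which 5 rose and 3 fell, against 26.8% and 32% of all 1746 genes at that filter. Without a filter, 11 of the 29 rose and 2 fell, against 15.4% and 5.09% of 20529 rows. Median centring of the libraries lowered each difference by 0.28, so that 25.4% of all tested genes were called higher and 33.3% lower, and 10 and 4 of the 21. The 2 groups of libraries did not overlap in 11 tested genes that were higher and 3 that were lower in knockout (background 38.0% and 25.8%).

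**Figure D1:**
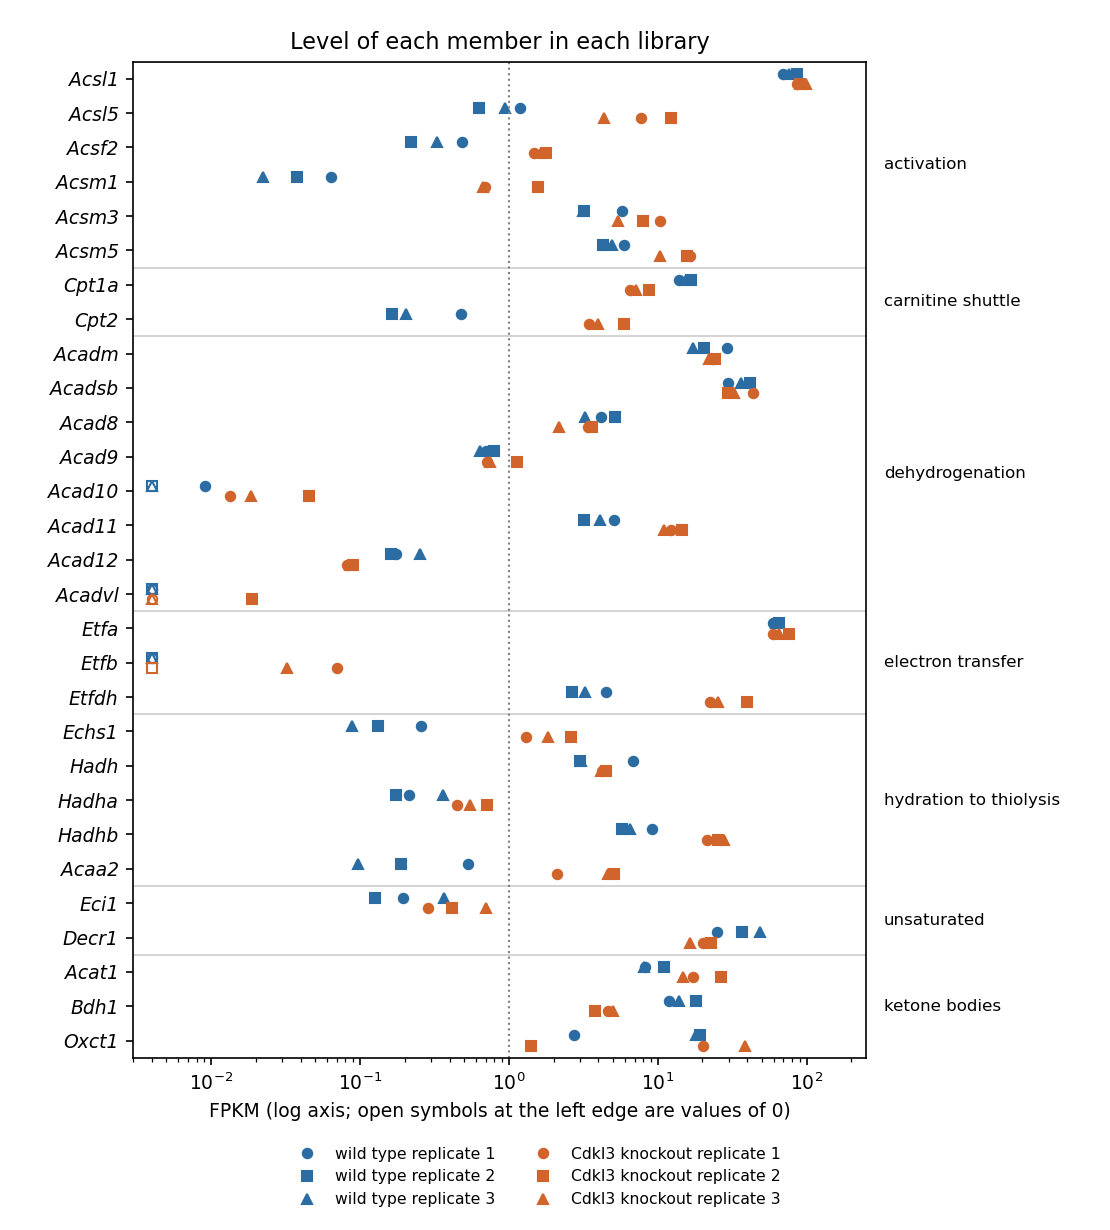
FPKM of the 29 genes with a row in each of the 6 libraries (log axis), grouped by step of the pathway; colour gives the labelled genotype, symbol shape the replicate, and the dotted line 1 FPKM. Acsl1 and Etfa are at 59.6 FPKM or more in every library, while Etfb and Acadvl are at or near 0 in every library.

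Markers of several cell types moved with the groups. Of the 14 hepatocyte markers 11 were tested and 8 rose with none falling (background 33.7% higher and 20.4% lower). Of the 11, 3 passed the filter only through the knockout group. The summed level of the 12 with a usable row was 1620 to 2030 FPKM in wild type and 3360 to 4580 FPKM in knockout libraries. None of those 12 was at 0 in all libraries, and the hepatocyte marker Apob measured 999 to 1290 FPKM in wild type and 1030 to 1100 FPKM in knockout. Of 13 endothelial, stellate and bile duct markers 5 were tested and 4 fell (Reln, Dcn, Lrat and Kdr, background 20.4%), with summed levels of 146 to 184 FPKM and 61.7 to 78.5 FPKM. Over the 10 with a row, groups did not overlap in 5 that were lower and 4 that were higher in knockout. The higher ones were Pecam1, Clec4g, Col1a1 and Epcam, all under the filter. Over all rows above 0 the groups did not overlap in 10.1% (lower) and 27.7% (higher). Of 10 immune markers 3 were tested (2 of them through the knockout group alone), and 2 rose and 1 fell (background 33.7% and 20.4%). Summed levels of the list were 5.58 to 7.23 and 3.57 to 10.2 FPKM, with Cd74 at 0 in every library. Both immune rises, of S100a8 and Lyz2, were lost once the dependence of each library on GC content and exon length was taken out. The part of these shifts in the results on the pathway was not tested.

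Of the 5 tested activation genes 4 rose (background 33.7%), all but the most abundant one. Acsf2 entered the test only through the knockout group, and Acsl5 reached 1 FPKM in no wild type library but replicate 1. Both could hardly have been called lower. Acsl1, the main long-chain acyl-CoA synthetase of liver, had 69, 86.3 and 76.7 FPKM in wild type replicates 1 to 3 and 86.9, 90.7 and 98.5 FPKM in knockout replicates 1 to 3. The groups did not overlap, but by a narrow margin, and the log2 difference of 0.25 was not called (SE 0.17, 95% interval -0.13 to 0.63, limma adjusted p = 0.23). Acsl5, a second long-chain synthetase, had 1.18, 0.634 and 0.945 FPKM in wild type and 7.69, 12.2 and 4.33 FPKM in knockout libraries. Every knockout library was above every wild type library, the ratio of the group means was 8.78 and the log2 difference 2.16 (SE 0.31, limma adjusted p = 0.00094). Acsl5 overlaps the exons of Zdhhc6 over 8.3% of its exon length, and strand use in counting is not given in the sources used here.

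The medium-chain synthetases of the Acsm family lie close together on chromosome 7, and reads of such relatives can be split, so single values are uncertain. Acsm5 had 5.95, 4.32 and 4.97 FPKM in wild type and 16.5, 15.8 and 10.4 FPKM in knockout libraries, with no overlap. It rose by 1.31 on the log2 scale (SE 0.21, limma adjusted p = 0.0016), and by 0.73 once the dependence of each library on GC content and exon length had been fitted and taken out, called the trend removal below. Acsm3 went from 4.03 ± 1.49 to 7.92 ± 2.43 FPKM (SD, n = 3), but the groups overlapped and 39.7% of its exon length is shared with Eri2 on the other strand. Its call (log2 difference 0.83, SE 0.27, limma adjusted p = 0.033) was lost without wild type replicate 2 or 3, without knockout replicate 1 or 2, and under 4 other settings. Its highest value, 10.3 FPKM, was in knockout replicate 1, the library with Kap. Acsm1 stayed under the filter, at 0.0636, 0.0377 and 0.0224 FPKM (5, 4 and 1 reads) in wild type and 0.692, 1.56 and 0.669 FPKM (37, 135 and 39 reads) in knockout libraries. In the fit without a filter it was called higher (log2 difference 0.89, SE 0.18, limma adjusted p = 0.018). Acsf2, a medium-chain synthetase of another family, went from 0.345 ± 0.133 to 1.63 ± 0.142 FPKM (limma adjusted p = 0.00072), and was no longer called after the trend removal, with a log2 difference of 0.22.

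In the carnitine shuttle Cpt1a was lower and Cpt2 higher in knockout libraries. Cpt2 entered the test only through the knockout group and could hardly have been called lower. Cpt1a, the malonyl-CoA-sensitive outer membrane enzyme that sets the rate of mitochondrial fatty acid entry, is a gene of chromosome 19 (plus strand, 3322334 to 3385733, GRCm38). It measured 13.8, 16.7 and 15.5 FPKM in wild type and 6.5, 8.75 and 7.2 FPKM in knockout libraries. Every knockout library was below every wild type library, and Cpt1a fell by 0.95 on the log2 scale (SE 0.17, 95% interval -1.34 to -0.56, limma adjusted p = 0.0024), a wild type level 2.05 times that of knockout. Cpt2, the inner membrane enzyme that reforms acyl-CoA in the matrix, is a gene of chromosome 4 (minus strand, 107903981 to 107923610). Its wild type values were 0.476, 0.163 and 0.204 FPKM, or 41, 19 and 10 reads, against 3.44, 5.9 and 3.98 FPKM, or 202, 558 and 254 reads, in knockout libraries. Cpt2 rose by 2.07 (SE 0.20, limma adjusted p = 0.00021) with a ratio of means of 15.8, and by 1.19 after the trend removal. Mean levels of Cpt1a and Cpt2 in these tables were 15.3 and 0.281 FPKM in wild type and 7.48 and 4.44 FPKM in knockout libraries. Slc25a20, the translocase that carries acylcarnitines between these enzymes, rose from 4.55 ± 1.63 to 9.39 ± 2.67 FPKM (SD, n = 3, limma adjusted p = 0.026), a call that the trend removal ended.

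**Figure D2:**
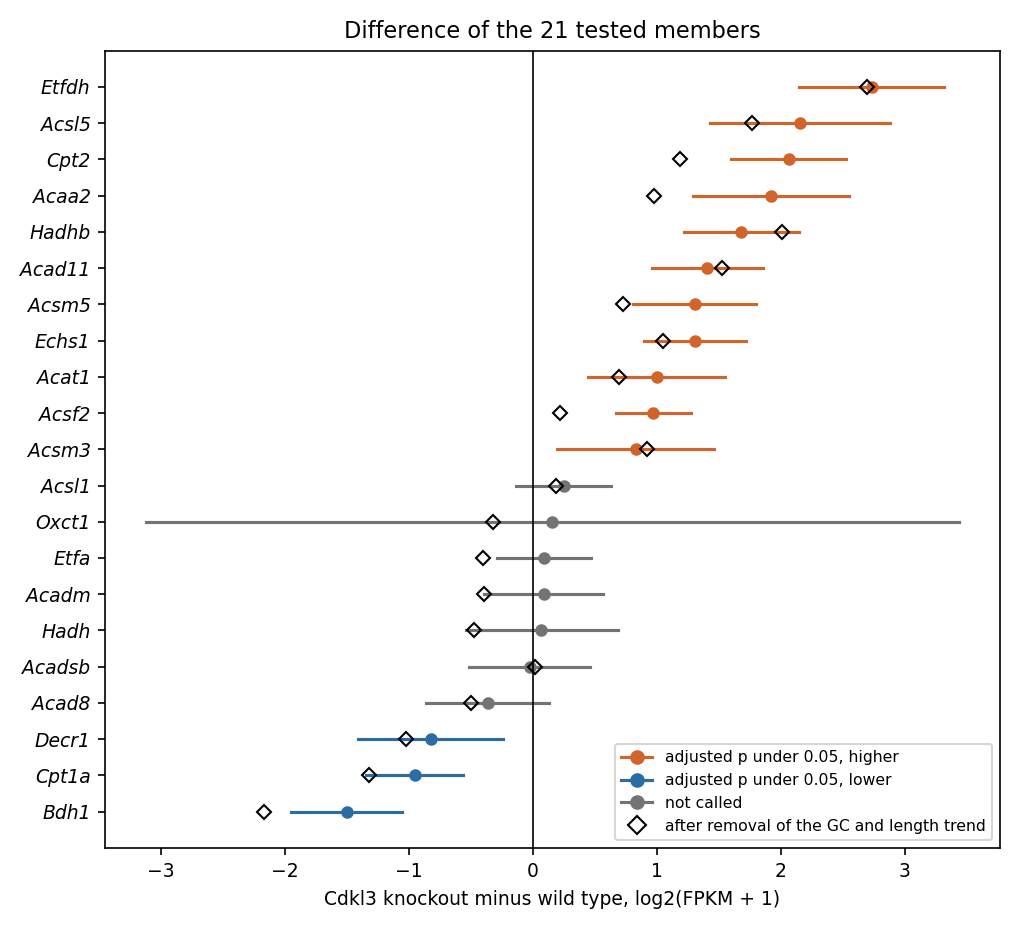
Log2 difference between libraries labelled knockout and wild type (filled circles, 95% intervals of the limma fit, n = 3 per group) for the 21 tested genes, with the value after the GC and length trend of each library was taken out (open diamonds). After adding 1 FPKM, Etfdh had the highest difference, 2.74, and Bdh1 the lowest, -1.5. The interval of Oxct1 runs from -3.12 to 3.44.

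The acyl-CoA dehydrogenases, which take the first electrons from the fatty acid, had 1 of 4 tested genes called (background 33.7% higher and 20.4% lower). Acadm, which acts on medium chains, measured 29.1, 20.5 and 17.3 FPKM in wild type and 23.5, 24.3 and 22 FPKM in knockout libraries, so the groups overlapped (log2 difference 0.09, 95% interval -0.39 to 0.57, limma adjusted p = 0.74). Acadsb and Acad8, which act on branched-chain acyl-CoA, were not called either, at 35.9 ± 6.17 and 35.5 ± 7.58 FPKM for Acadsb and 4.2 ± 0.972 and 3.05 ± 0.777 FPKM for Acad8 (SD, n = 3). Acad8 passed as lower after median centring (-0.64, limma adjusted p = 0.038). The exception was Acad11, a dehydrogenase reported to act on long chains. It had 5.11, 3.2 and 4.11 FPKM in wild type and 12.2, 14.6 and 11 FPKM in knockout libraries, with no overlap, and rose by 1.41 (SE 0.20, limma adjusted p = 0.0008).

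The other 4 dehydrogenases with a row were under the filter. Acad9, known for its role in assembling complex I, measured 0.644 to 0.796 FPKM in wild type and 0.717 to 1.14 FPKM in knockout libraries, or 108 to 368 reads. Acad12 had 34 to 51 reads in wild type and 13 to 23 reads in knockout libraries, at 0.197 ± 0.0508 and 0.0856 ± 0.00398 FPKM (SD, n = 3), and Acad10 had at most 11 reads in any library. Groups did not overlap for Acad12 (lower in knockout) or Acad10 (higher), and neither was called without a filter (limma adjusted p = 0.12 and 0.26). Acadvl, the very long chain enzyme and a major one in most tissues, had 2 reads in knockout replicate 2 and none elsewhere, where 3 reads would be 0.023 to 0.0546 FPKM. Its exons overlap those of Dvl2 on the other strand over 42.9% of its length. The low values of Acadvl and, below, of Etfb do not show that these genes are silent, since Gapdh was also at or under 0.237 FPKM in every library.

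Electrons pass from these dehydrogenases to the electron transfer flavoprotein, made of an Etfa and an Etfb chain, and from there to ubiquinone through Etfdh. Etfdh showed the highest difference of the 21 tested genes on the log2(FPKM + 1) scale. With 0.1 FPKM added instead, Cpt2 (3.62) and Acaa2 (3.53) were above Etfdh (3.03). Ratios of group means were higher than that of Etfdh for Cpt2 (15.8), Acaa2 (14.6), Echs1 (12.0) and Acsl5 (8.78). Etfdh had 4.52, 2.65 and 3.26 FPKM in wild type and 22.6, 39.9 and 25.4 FPKM in knockout libraries. The lowest knockout library was well above the highest wild type library, with a ratio of means of 8.43 and a log2 difference of 2.74 (SE 0.25, 95% interval 2.15 to 3.32, limma adjusted p = 0.00017). This was 2.70 after the trend removal. The gene is on chromosome 3 (minus strand, 79603788 to 79629500).

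Etfa was not called, with 59.6, 65.5 and 62.3 FPKM in wild type and 59.8, 76 and 64.8 FPKM in knockout libraries (log2 difference 0.09, 95% interval -0.29 to 0.47, limma adjusted p = 0.67). Its partner Etfb was listed at 0 in every wild type library and in knockout replicate 2, and at 0.07 and 0.0322 FPKM, which is 2 reads and 1 read, in knockout replicates 1 and 3. The level that 3 reads would give runs from 0.053 to 0.126 FPKM. The 2 chains are joined in equal number in the protein, whereas Etfa had at least 2339 reads in every library and Etfb at most 2. Etfb has 57.1% GC in its longest transcript against 45% for Etfa, and 58.2% of its exon length is shared with other annotated genes, mainly Gm45233. The log2 ratio of Etfa to Etfb was 5.99 ± 0.07 in wild type and 6.03 ± 0.22 in knockout libraries (SD, n = 3, two-sided exact permutation p = 0.8), and rests on Etfa and the pseudocount alone.

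In the steps from hydration to thiolysis, 3 of 4 tested genes rose (background 33.7%). Of these, Echs1 and Acaa2 entered the test only through the knockout group and could hardly have been called lower. Echs1, the short-chain enoyl-CoA hydratase, had 0.258, 0.132 and 0.0885 FPKM in wild type and 1.3, 2.61 and 1.84 FPKM in knockout libraries. It rose by 1.31 (SE 0.18, limma adjusted p = 0.00074), from 15 to 77 reads in wild type to 265 to 855 reads in knockout libraries. Acaa2, the thiolase that releases acetyl-CoA, had 0.531, 0.19 and 0.0967 FPKM in wild type, with 3 reads in replicate 3, and 2.12, 5.12 and 4.67 FPKM in knockout libraries. The groups of both genes were far apart, and Acaa2 rose by 1.92 (SE 0.27, limma adjusted p = 0.00084), or by 0.98 after the trend removal. Hadh, the hydroxyacyl-CoA dehydrogenase for shorter chains, did not differ detectably, with 4.3 ± 2.21 and 4.29 ± 0.173 FPKM (SD, n = 3, 95% interval of the log2 difference -0.54 to 0.69). Its wild type spread came from replicate 1, at 6.85 FPKM against 3 and 3.04 FPKM.

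The trifunctional protein, which carries long chains through these steps, is built from Hadha and Hadhb, whose starts lie side by side in the region printed above. Hadhb had 9.2, 5.75 and 6.56 FPKM in wild type and 21.4, 25.6 and 27.9 FPKM in knockout libraries. It rose by 1.68 (SE 0.20, limma adjusted p = 0.00045), with a ratio of means of 3.49 and no overlap, and by 2.01 after the trend removal. Hadha had 0.213, 0.174 and 0.364 FPKM in wild type and 0.448, 0.712 and 0.549 FPKM in knockout libraries. These groups did not overlap either, but Hadha was under the filter, and without a filter its log2 difference of 0.33 was not called (SE 0.11, limma adjusted p = 0.077). Hadhb was 18 to 43.2 times Hadha in wild type and 36 to 50.8 times in knockout libraries, so these FPKM ratios overlapped between groups. The log2 ratio of Hadha to Hadhb after adding 1 FPKM to each went from -2.69 ± 0.33 to -4.04 ± 0.15 (SD, n = 3, two-sided exact permutation p = 0.1, the smallest that 3 against 3 libraries allow). The difference of -1.36 became -0.85 with 0.1 FPKM added instead. The longest transcript has 51.3% GC for Hadha and 39.1% for Hadhb.

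Among the auxiliary enzymes for unsaturated fatty acids, Decr1, a dienoyl-CoA reductase, had 25.1, 36.6 and 48.3 FPKM in wild type and 20.2, 22.7 and 16.4 FPKM in knockout libraries. The groups did not overlap and Decr1 fell by 0.82 (SE 0.25, limma adjusted p = 0.025). That call was lost when a library was left out, with a limma adjusted p of 0.073 without wild type replicate 2, 0.082 without wild type replicate 3 and 0.08 without knockout replicate 3, and it was also lost without a filter (limma adjusted p = 0.073). Eci1, the enoyl-CoA isomerase, had 13 to 16 reads in wild type and 15 to 40 reads in knockout libraries and was not called without a filter (limma adjusted p = 0.25).

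Ketone body genes went in different directions. Acat1, the thiolase that joins or splits acetoacetyl-CoA, had 8.18, 11 and 8.04 FPKM in wild type and 17.3, 26.6 and 14.7 FPKM in knockout libraries, without overlap. It rose by 1.00 (SE 0.24, limma adjusted p = 0.009), and missed the threshold when values were rescaled to the total outside mitochondrial transcripts (0.75, limma adjusted p = 0.057). Bdh1, which reduces acetoacetate to hydroxybutyrate, had 11.9, 18 and 13.9 FPKM in wild type and 4.61, 3.82 and 5.01 FPKM in knockout libraries. Bdh1 fell by 1.5 (SE 0.20, 95% interval -1.95 to -1.05, limma adjusted p = 0.00063), with a wild type mean 3.26 times that of knockout, and no library of one group reached the other. The gene is on chromosome 16 (plus strand, 31422280 to 31458901), and 13.7% of its exon length is shared with Gm15743.

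Oxct1, the transferase by which tissues other than liver use ketone bodies, varied more within groups than between them. It had 2.73, 19.3 and 18 FPKM in wild type and 20.2, 1.41 and 38.4 FPKM in knockout libraries, from 206 to 3801 reads. Low values stood in wild type replicate 1 and knockout replicate 2 and the other 4 libraries were high, so the log2 difference of 0.16 had an SE of 1.29 (95% interval -3.12 to 3.44, limma adjusted p = 0.93). Pdk4, a kinase of the pyruvate dehydrogenase complex that is abundant in muscle, was high in 3 of those 4 libraries, at 54.2 and 52.5 FPKM in wild type replicates 2 and 3 and 59.6 FPKM in knockout replicate 3, and at 2.26 to 4.54 FPKM in the others. The muscle protein titin (Ttn) was at 1.86, 2.24 and 6.92 FPKM in the same 3 libraries and at 0.0144 to 0.166 FPKM in the others.

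Markers of other tissues stood as follows beside the Oxct1 values. Over 15 of the 16 striated muscle markers (Tnnt2 had no usable row) the summed level was 0.348, 2.08 and 2.52 FPKM in wild type and 1.61, 0.257 and 18.2 FPKM in knockout replicates 1 to 3, with Myl3 at 0 in every library. Nephron markers summed to 5320 FPKM in knockout replicate 1, over 11 of 16 genes, and to 0.432 to 5.93 FPKM in the other libraries. Adipocyte markers, with 6 of 10 measured and Plin4 at 0 in every library, summed to 7.07 and 11 FPKM in knockout replicates 1 and 3 and to 0.275 to 1.06 FPKM in the others. The 2 libraries with the least Oxct1 thus had the lowest sums of muscle and of adipocyte markers. In wild type replicates 2 and 3 most of the muscle sum was Ttn, given above, so the sum adds little to Ttn there. The part of other tissue in the Oxct1 values was not tested. Pdk4, Ttn and Adipoq were singled out after their values were seen.

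**Figure D3:**
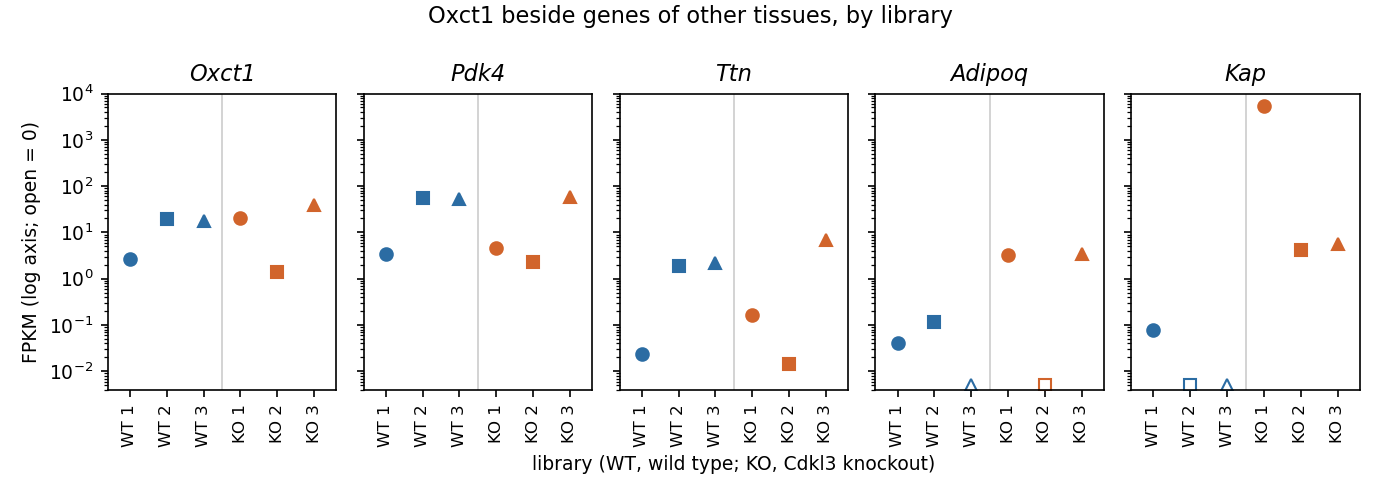
FPKM (log axis, open symbols for 0) in the 6 libraries of Oxct1, of Pdk4, of the muscle gene Ttn, of the adipocyte gene Adipoq and of the kidney gene Kap. Oxct1 is low in wild type replicate 1 and knockout replicate 2, at 2.73 and 1.41 FPKM, and Kap is at 5260 FPKM in knockout replicate 1.

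Levels of the 29 genes also went with base composition. Across them Spearman's rho of the mean FPKM with the GC content of the longest transcript was -0.62 in wild type and -0.76 in knockout libraries, and with exon length 0.21 and 0.20. The genes share the same libraries, so these are descriptions across genes. The 8 genes under the filter had 48.1% to 57.1% GC, while Acsl1 and Etfa, the most abundant, had 44.8% and 45%. After the trend removal 10 of the 21 tested genes were higher and 3 lower (background 26.9% and 24.7%), with a median log2 difference of 0.22 in place of 0.83. The part of base composition in the differences was not tested beyond that.

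**Figure D4:**
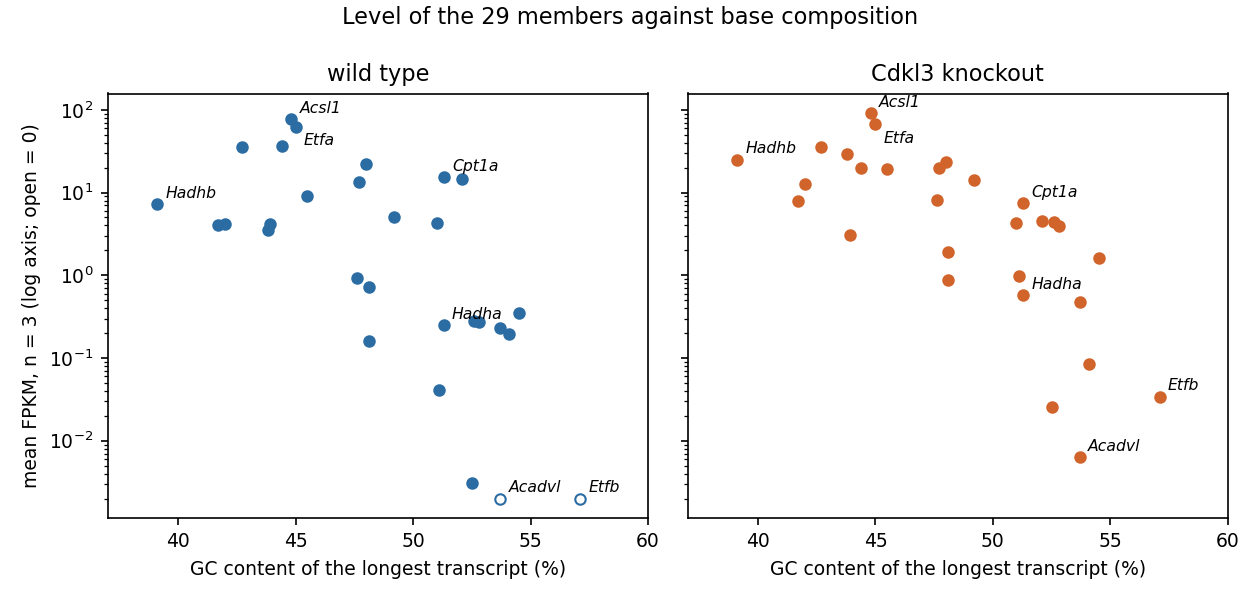
Mean FPKM (n = 3, log axis, open symbols for 0) of the 29 genes against the GC content of the longest GENCODE M21 transcript, for libraries labelled wild type (left) and Cdkl3 knockout (right). Genes with more GC tend to lie lower, with rho -0.62 and -0.76, and Hadha and Etfb lie far below their partners Hadhb and Etfa.

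Counts of the neighbouring pathways stand beside 33.7% of all tested genes called higher and 20.4% called lower. After the trend removal these shares were 26.9% and 24.7%. Of the 15 ketone body and carnitine partners 5 were tested, 3 rose and 1 fell. Besides Slc25a20, the carnitine transporter Slc22a5 rose from 2.49 ± 0.994 to 6.75 ± 1.36 FPKM (limma adjusted p = 0.0042), and Bbox1, the last enzyme of carnitine synthesis, fell from 103 ± 10.9 to 49.1 ± 5.37 FPKM (limma adjusted p = 0.0015). After the trend removal Bbox1 alone of these 5 was called. Of 18 enzymes that break down branched and odd chain acyl-CoA 12 were tested, 8 rose and 2 fell. Ivd and Hsd17b10, 2 of the 8, passed the filter only through the knockout group. Mcee, at a wild type mean under 1 FPKM, also needed knockout libraries to pass. Hibadh, of valine breakdown, rose from 4.04 ± 1.42 to 19.1 ± 3.83 FPKM (limma adjusted p = 0.00044), Ivd, of leucine breakdown, from 0.192 ± 0.0611 to 1.49 ± 0.282 FPKM, Pccb, a propionyl-CoA carboxylase chain, from 2.47 ± 1.27 to 10.1 ± 0.954 FPKM and Mcee, the methylmalonyl-CoA epimerase, from 0.713 ± 0.517 to 3.16 ± 0.382 FPKM (all SD, n = 3). After the trend removal 3 were higher and 3 lower of 11 tested.

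Peroxisomal beta-oxidation, which shortens the longest chains, had 4 of 14 tested genes higher and 2 lower (background 33.7% and 20.4%). Nudt7, a peroxisomal CoA hydrolase, went from 0.813 ± 0.191 to 61.2 ± 26.4 FPKM (log2 difference 5, limma adjusted p = 7.2e-05), and its relative Nudt19 from 2.38 ± 1.69 to 28.4 ± 11.6 FPKM (limma adjusted p = 0.00052). The reductase Decr2, the peroxisomal counterpart of Decr1, rose from 0.258 ± 0.0845 to 4.07 ± 2.31 FPKM, while the transporter Abcd2 fell from 58.4 ± 10.2 to 11.5 ± 4.68 FPKM (limma adjusted p = 0.001 and 0.00053). Decr2 and Amacr, 2 of the 4 higher genes, passed the filter only through the knockout group and could hardly have been called lower. Nudt7, at a wild type mean under 1 FPKM, also needed knockout libraries to pass. After the trend removal 4 of the 14 were higher and 4 lower (background 26.9% and 24.7%), with a median log2 difference of -0.48 in place of -0.01. Of the 15 other acyl-CoA synthetases 4 were tested, Acss2 rose from 2.52 ± 0.608 to 5.62 ± 2.15 FPKM and Acss3 fell from 4.99 ± 1.23 to 0.567 ± 0.227 FPKM (SD, n = 3, limma adjusted p = 0.025 and 0.00028). Acss3 passed the filter only through the wild type group. The Acss2 call was lost after the trend removal (log2 difference 0.65, limma adjusted p = 0.078) and without a filter (limma adjusted p = 0.075).

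Among PPAR alpha, its targets and the regulators of oxidation, 2 of 15 tested genes rose and 6 fell (background 33.7% and 20.4%). The pantetheinase Vnn1 fell from 174 ± 36.1 to 32.3 ± 10.2 FPKM (limma adjusted p = 0.00035). The fatty acid hydroxylases Cyp4a10 and Cyp4a14, which have near-identical relatives, measured 2620 ± 512 and 341 ± 239 FPKM for Cyp4a10 (limma adjusted p = 0.00079) and 5440 ± 830 and 469 ± 329 FPKM for Cyp4a14 (limma adjusted p = 0.00065) in wild type and knockout. Tfam, the mitochondrial transcription factor, rose from 4.91 ± 1.03 to 12.1 ± 0.909 FPKM (SD, n = 3, limma adjusted p = 0.0013). Ppara itself, the other gene that rose and named after its values were seen, had 1.35, 0.198 and 0.331 FPKM in wild type and 2.47, 1.56 and 1.43 FPKM in knockout libraries (limma adjusted p = 0.029). In wild type only replicate 1 reached 1 FPKM, so Ppara needed knockout libraries to pass and could hardly have been called lower. Its call ended with the trend removal. After that removal 1 of the 15 was higher and 8 lower (background 26.9% and 24.7%). The lists hold different genes at different levels, and no test compared them with each other or with the 29 genes.

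**Figure D5:**
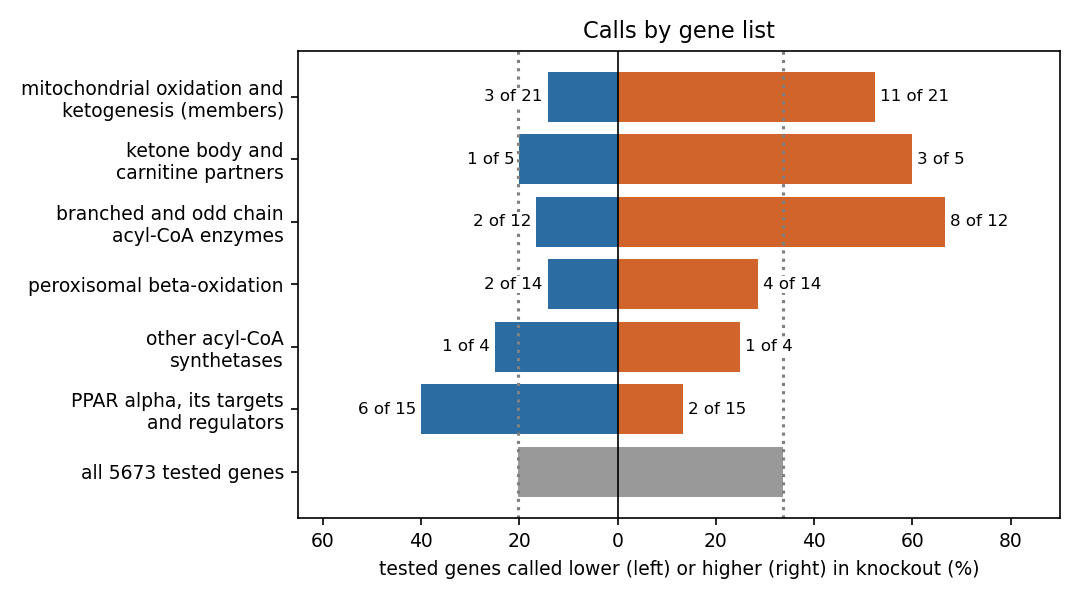
Percentage of the tested genes of each list called lower (left) or higher (right) in libraries labelled knockout, with counts beside the bars; the grey bar and dotted lines are the 5673 tested genes, 20.4% lower and 33.7% higher. The 21 tested genes of mitochondrial oxidation and ketogenesis had 11 higher and 3 lower, and the PPAR alpha list 2 higher and 6 lower of 15.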

How the data were processed

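Liver RNA of 6 libraries (3 labelled wild type, 3 labelled Cdkl3-/-) was sequenced from total RNA with Illumina protocols, per the labels' protocols. HISAT2 and GRCm39 are named in the submitters' processing notes; the version of the aligner, the counter, its strand setting and its annotation: not given in the sources used here. The deposited tables hold 1 FPKM value per gene row, per the file headers. Identifier and symbol of a row name different genes. Symbols fit the values, as FPKM multiplied by the GENCODE M21 (GRCm38) exon length gave whole reads, except in 1787 chromosome 1 rows, which were left out with 119 rows lacking a symbol. Whole reads (within 0.15, up to 40 reads) made up 98.7% to 99.0% of low values and gave the depth. The header code of the table labelled knockout replicate 3 differs from its title; the label was followed.

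For testing, log2(FPKM + 1) went into limma 3.58.1 (R 4.3.3; mean-variance trend, robust moderation, genotype only), for the 5673 genes reaching 1 FPKM in 3 or more libraries, with Benjamini-Hochberg adjustment and a threshold of 0.05. In simulated data (knockout against wild type, 5673 genes) the fit called 63 of 100 genes given a log2 change of 1, 89 of 100 given 2, and 11 of 5473 left unchanged. Far fewer genes were changed there than were called in the data, and all of them upward, so these rates need not hold here. Subunit ratios were compared by two-sided exact permutation. Named were genes called at a log2 difference of 1 or more in size, Cpt1a, Cpt2 and the subunit pairs, with other members by value or range, and up to 4 called genes of each other list. Members and lists were chosen with earlier results of these data known. Alternatives were another pseudocount, other filters and scalings, no robust moderation, a replicate block and leaving out each library (over the same genes). GC content is that of the longest M21 transcript, and promoter windows are from RefSeq. Acadl, on chromosome 1, and some genes of the other lists are not reported here. Tables, permutations and figures were made in Python 3.11.15 (pandas 2.3.3, numpy 2.4.6, matplotlib 3.10.9), and Spearman correlations with scipy 1.17.1.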

Additional observations from a re-analysis of the deposited data

How the results depend on the processing

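Of the 14 called genes, 10 kept direction and call under each of the 15 or 16 settings that gave them a value, and 4 (Decr1, Acat1, Acsm3 and Acsf2) lost the call under at least 1 of them; none of the 14 changed direction. The count of higher genes was 9 to 11 except at the 10 FPKM filter, where it was 5 because 13 genes were tested, and the count of lower genes was 2 to 4. Leaving out 1 library gave 10 to 11 higher and 2 to 3 lower. Replicate numbers did not pair the libraries (correlation of deviations for equal numbers -0.05, -0.10 and 0.18, and not every library correlated best with its own number); with a replicate block 11 were higher and 2 lower, as Decr1 lost its call (limma adjusted p = 0.05). Signs of uncalled genes changed as follows, and the cause was not tested. Median centring gave -0.19 for Acadm, -0.21 for Hadh, -0.19 for Etfa, -0.03 for Acsl1 and -0.12 for Oxct1. Removal of the GC and length trend gave -0.39 for Acadm, 0.02 for Acadsb, -0.47 for Hadh, -0.40 for Etfa and -0.32 for Oxct1. Rescaling outside mitochondrial transcripts gave -0.17 for Acadm, -0.14 for Hadh, -0.18 for Etfa, -0.02 for Acsl1 and -0.09 for Oxct1. Quantile normalization gave 0.04 for Acadsb and -0.22 for Hadh. Leaving out 1 library gave -0.07 to 0.29 for Acadm, -0.18 to 0.10 for Acadsb, -0.09 to 0.39 for Hadh, -0.01 to 0.17 for Etfa and -0.66 to 1.36 for Oxct1. The difference of 0.04 in the log2 ratio of Etfa to Etfb was -0.30 with a pseudocount of 0.1 and ran from -0.08 to 0.14 without 1 library. At these depths 1 read on a 1 kb transcript is 0.0206 to 0.0489 FPKM, which limits what can be said of Etfb, Acadvl and Acad10.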
